A study of Mus musculus with 9 samples.

Results

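Fos, Fosb, Jun, Junb, Egr1, Egr2, Egr3, Atf3, Ier2 and Btg2 are immediate early genes, and their levels were compared across 9 mouse skeletal muscles. The 10 genes were taken by name from 22180 genes that had a probe set matched by the array annotation to exactly 1 gene symbol. Each of the 10 was measured by 1 probe set. No cut-off on measured values was applied in the choice. The list was drawn up with earlier results of these data known, so it is not independent of them.

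The muscles came from male C57BL/6J mice that were 12 weeks old, and no treatment or allele is named for any of them. The hindlimb group (n = 4) held rectus femoris, tibialis anterior, soleus and gastrocnemius, the shoulder and forelimb group (n = 3) held trapezius, supraspinatus and triceps, and the head group (n = 2) held masseter and digastric. The grouping follows the anatomy of the labelled muscles, and the series title concerns positional memory and Hoxa10. Each muscle had 1 array, so muscle, animal and array cannot be told apart within a region, and the spread given for a region is the spread between its different muscles. Values are log2 expression levels per probe set, a scale on which 1 unit is a doubling, and levels of different genes were not set against each other. Because whole muscle was used, a change in the number of cells of a type and a change in RNA per cell cannot be told apart.

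Immediate early genes are transcribed within minutes of a stimulus from factors already present in the cell, and their RNAs are short-lived. Fos and Jun family proteins pair to form the AP-1 transcription factor, and Egr proteins are zinc-finger factors that bind GC-rich sites. In skeletal muscle the family is known to respond to contraction, stretch, injury and cell dissociation, which is why levels in dissected tissue can carry a trace of handling and of recent activity.

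The arrays were of muscle by their defining transcripts, with Acta1, skeletal actin, between 12.76 and 12.94 and Ckm, muscle creatine kinase, between 12.12 and 12.85 over the 9 arrays. The arrays of rectus femoris, gastrocnemius and triceps had a narrower value range than the other 6, with an SD over probe sets of 1.92 to 1.96, against 2.03 to 2.08. These 3 arrays are limb muscles, so the head group had none of them. Results were therefore also computed among the 6 arrays of wider range.

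Promoter sequence was shown for Fosb and Junb, whose highest levels fell on the same 3 arrays. It was also shown for Egr2, which differed most from head muscles in both other regions. RefSeq windows on GRCm38.p6, from 250 bases before to 50 bases after a transcript start, covered 7 of the 10 genes with 11 windows. Egr1, Egr3 and Ier2 had no window in the search, so the counts below say nothing of them. Sites more than 250 bases before a start were not searched for any gene. Capitals mark matches, on either strand, to the letters of a CArG box (the serum response factor motif, CC and GG with 6 bases of A or T between), TGACGTCA and its half-site TGACG (CREB and ATF motifs), TGA and TCA with any 1 base between (AP-1), GCGNGGGCG (Egr) and TATAAA. The half-site lies within TGACGTCA, and it was added to the search after the sequences had been seen.
Fosb, chr7:19309996-19310295, minus strand: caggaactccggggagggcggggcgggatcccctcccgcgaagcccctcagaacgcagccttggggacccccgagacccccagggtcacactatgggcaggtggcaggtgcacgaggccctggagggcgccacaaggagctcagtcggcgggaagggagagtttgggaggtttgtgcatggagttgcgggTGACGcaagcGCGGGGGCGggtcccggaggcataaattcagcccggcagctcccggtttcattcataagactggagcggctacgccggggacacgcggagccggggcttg
Junb, chr8:84978699-84978998, minus strand: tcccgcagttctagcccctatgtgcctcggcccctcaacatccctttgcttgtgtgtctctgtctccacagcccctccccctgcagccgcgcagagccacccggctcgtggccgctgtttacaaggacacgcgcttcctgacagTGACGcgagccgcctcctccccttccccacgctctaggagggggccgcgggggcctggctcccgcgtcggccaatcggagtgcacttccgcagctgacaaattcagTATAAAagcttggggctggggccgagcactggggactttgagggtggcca
Egr2, chr10:67537619-67537918, plus strand: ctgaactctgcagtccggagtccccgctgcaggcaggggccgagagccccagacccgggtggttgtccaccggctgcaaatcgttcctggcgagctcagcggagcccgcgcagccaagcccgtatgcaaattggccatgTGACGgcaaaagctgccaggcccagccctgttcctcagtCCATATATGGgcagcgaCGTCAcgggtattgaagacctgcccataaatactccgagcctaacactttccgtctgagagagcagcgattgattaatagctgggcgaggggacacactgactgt
The Fosb window held TGACG and the Egr letters GCGGGGGCG, and the Junb window held TGACG and TATAAA. The Egr2 window held the CArG letters CCATATATGG between matches to TGACG on either strand. A CArG box was found for 1 of the 7 genes, Egr2, and in 1.63% of 32851 promoter windows of the same length. It was in 4 of 5 Egr2 windows, of which 3 overlap and hold the same site. TGACG was found in windows of 6 of the 7 genes, and in 20.8% of all windows. The AP-1 letters were found in none of the 11 windows and in 7.81% of all. A match is a description of the letters and not of binding.

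No member of the list differed between regions at an adjusted p of 0.05 in limma, in any of 3 contrasts or in the test of any difference among the 3 regions. Between its lowest and highest array a gene spanned 1.41-fold (Fosb) to 3.27-fold (Atf3). Egr2 was the gene with the largest difference from head muscles in both other regions. Egr3 was higher in each of the 4 hindlimb muscles than in any other muscle. Fos, Jun and Ier2 varied least with region. Junb and Fosb were highest on the 3 arrays of narrower value range.

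**Figure D1:**
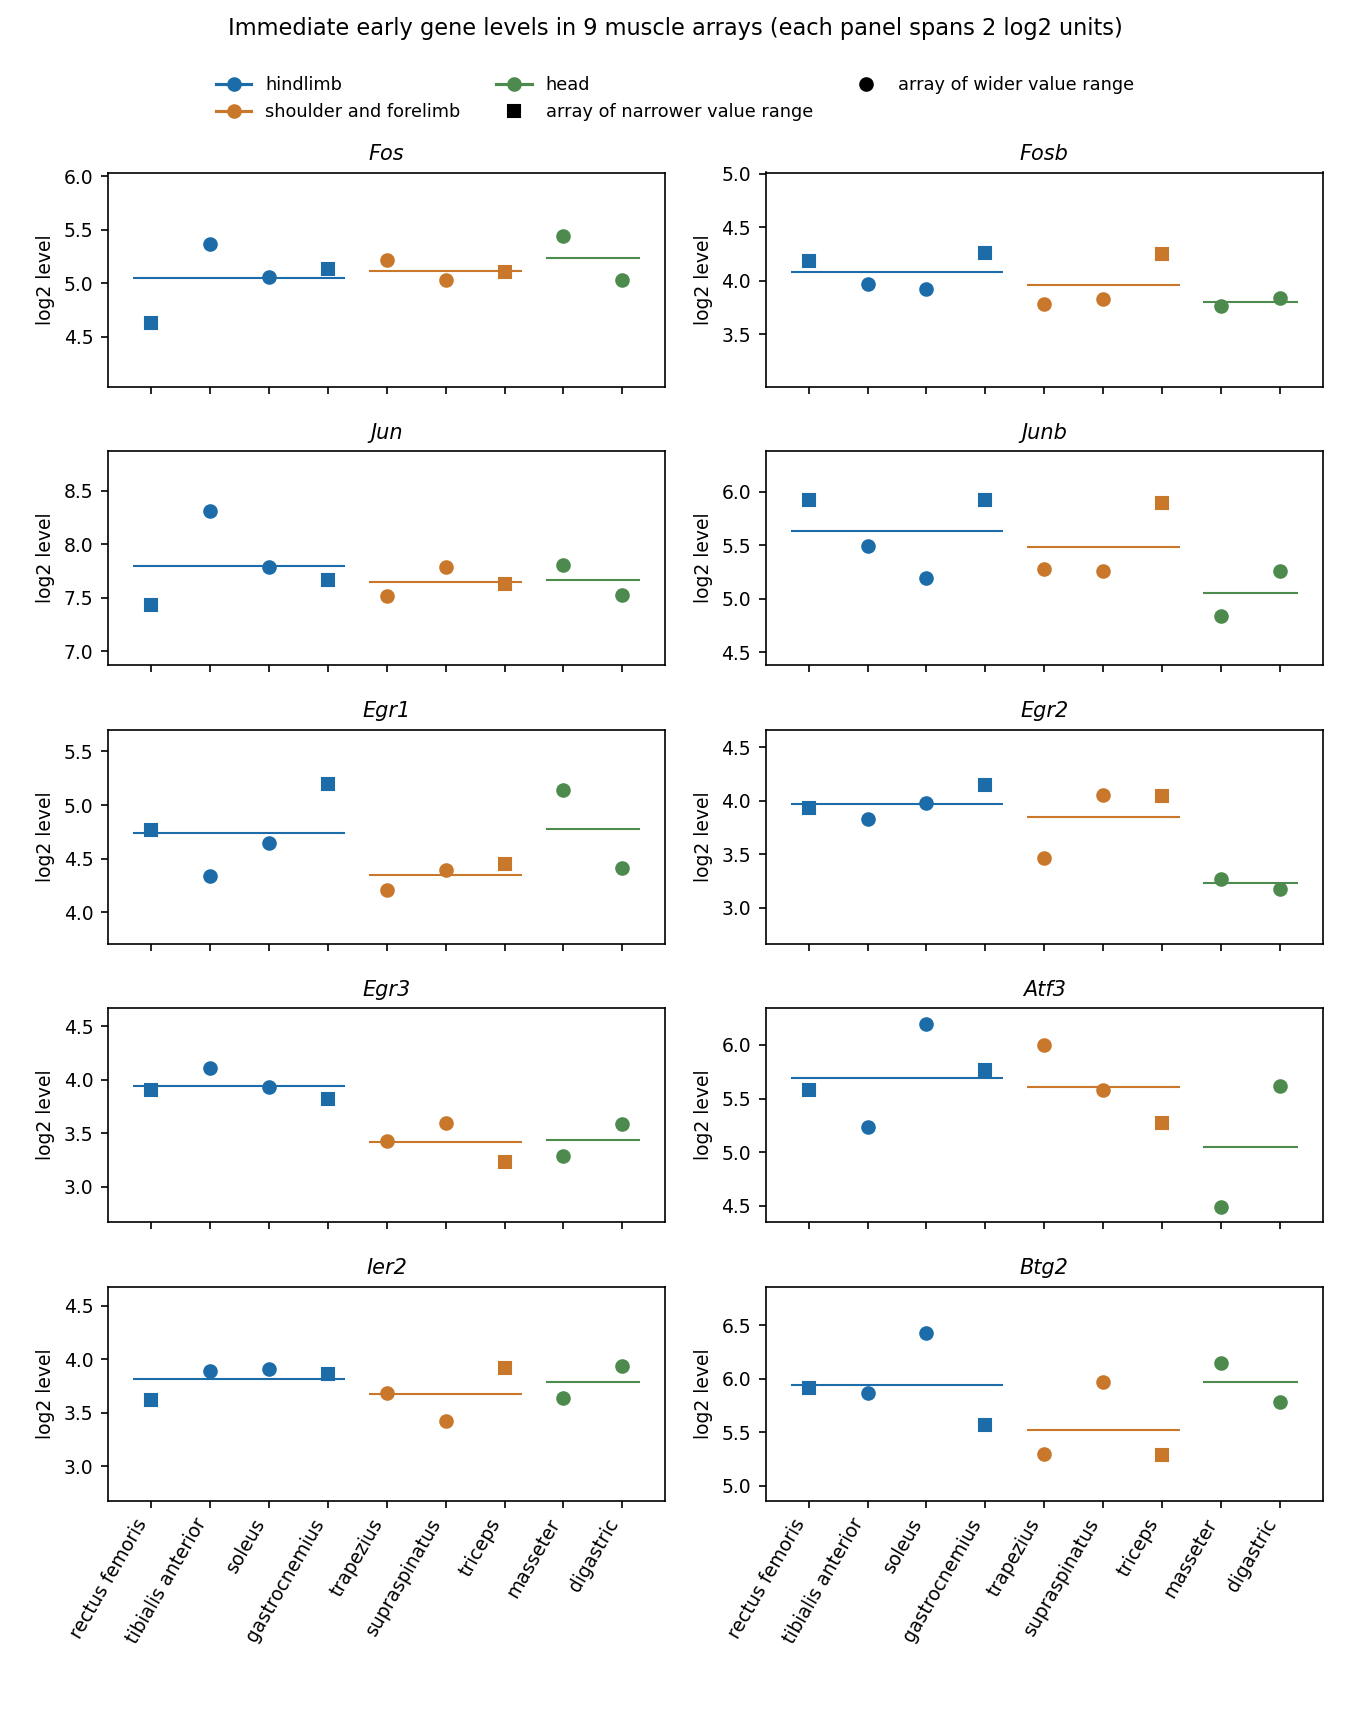
Log2 level of each gene (vertical axis) in the 9 muscles (horizontal axis); each point is 1 array, horizontal lines are region means, squares mark the 3 arrays of narrower value range, and each panel spans 2 log2 units. Egr3 lies between 3.82 and 4.11 in hindlimb muscles and at or below 3.6 elsewhere, Egr2 is lowest in both head muscles, and the squares are the 3 highest points for Junb and for Fosb.

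Fos, the AP-1 subunit most used as a marker of recent stimulation, had log2 levels of 4.63 in rectus femoris, 5.37 in tibialis anterior, 5.06 in soleus and 5.13 in gastrocnemius, against 5.22 in trapezius, 5.03 in supraspinatus and 5.11 in triceps, and 5.44 in masseter and 5.03 in digastric. The regions overlapped throughout, with the highest level in masseter and the lowest in rectus femoris. Mean levels were 5.05 ± 0.31 in hindlimb, 5.12 ± 0.09 in shoulder and forelimb, and 5.24 ± 0.29 in head muscles (SD, n = 4, 3 and 2). The hindlimb minus head difference was -0.19 log2 (SE 0.22, 95% interval -0.66 to 0.29, limma adjusted p = 0.731). In the order of its levels the only step between neighbours above the within-region SD of 0.25 was 0.41, between digastric and rectus femoris, so the other 8 muscles formed an unbroken run.

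Jun, the partner of Fos in AP-1, had log2 levels of 7.43 in rectus femoris, 8.31 in tibialis anterior, 7.79 in soleus and 7.67 in gastrocnemius, against 7.52 in trapezius, 7.79 in supraspinatus and 7.63 in triceps, and 7.81 in masseter and 7.53 in digastric. Tibialis anterior stood 0.5 above the next muscle, masseter, which was more than the within-region SD of 0.29, and no other neighbouring muscles differed by that much. Both ends of the order were hindlimb muscles. The region means were 7.8 ± 0.37 in hindlimb, 7.65 ± 0.14 in shoulder and forelimb and 7.67 ± 0.2 in head muscles. The hindlimb minus head difference was 0.13 log2 (limma adjusted p = 0.834). With the narrower arrays left out it was 0.38.

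Junb, an AP-1 subunit that promotes muscle fibre size in mice, had log2 levels of 5.92 in rectus femoris, 5.49 in tibialis anterior, 5.19 in soleus and 5.92 in gastrocnemius, against 5.28 in trapezius, 5.26 in supraspinatus and 5.89 in triceps, and 4.84 in masseter and 5.26 in digastric. The levels fell into 3 steps, with rectus femoris, gastrocnemius and triceps at the top, masseter at the bottom and the other 5 muscles between. By region the means were 5.63 ± 0.36 in hindlimb, 5.48 ± 0.36 in shoulder and forelimb and 5.05 ± 0.3 in head muscles. The hindlimb minus head difference was 0.58 log2 (SE 0.27, 95% interval -0.01 to 1.17, limma adjusted p = 0.424). With the narrower arrays left out it was 0.29.

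Fosb, a Fos family subunit, had log2 levels of 4.18 in rectus femoris, 3.97 in tibialis anterior, 3.92 in soleus and 4.26 in gastrocnemius, against 3.78 in trapezius, 3.83 in supraspinatus and 4.25 in triceps, and 3.76 in masseter and 3.84 in digastric. All hindlimb levels lay above both head levels. The hindlimb mean was 4.08 ± 0.16, against 3.96 ± 0.26 in shoulder and forelimb and 3.8 ± 0.06 in head muscles. The hindlimb minus head difference was 0.28 log2 (limma adjusted p = 0.546), or 0.14 in the 6 wider arrays alone.

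Junb and Fosb shared their 3 highest arrays, and these were the 3 arrays of narrower value range. For Junb the narrower arrays read 5.89 to 5.92 and the wider ones 4.84 to 5.49. For Fosb the narrower arrays read 4.18 to 4.26 and the wider ones 3.76 to 3.97. The median over all genes was also higher in the narrower arrays, at 3.9 to 3.95 against 3.79 to 3.88. Fosb, with a mean level of 3.98, lay close to the median gene mean of 3.88. With region in the model, narrower minus wider was 0.6 log2 for Junb (SE 0.15, 95% interval 0.27 to 0.92, limma adjusted p = 0.0346) and 0.34 for Fosb (SE 0.12, 95% interval 0.08 to 0.61, limma adjusted p = 0.0996). Junb was thus the 1 member of the 10 past the threshold, where 8.94% of all genes were past it, 2.61% as higher and 6.33% as lower in the narrower arrays. This test was added after the values had been seen, and 9.08% of all genes had every narrower array above every wider one, as Junb and Fosb did. The Junb call did not hold when any 1 of the 7 arrays outside the head group was left out (0.52 to 0.68 log2, limma adjusted p 0.0544 to 0.116). It did hold under median centring, under quantile normalization and without either head array. Whether the value range is a property of the array or of the muscle's RNA was not tested.

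**Figure D2:**
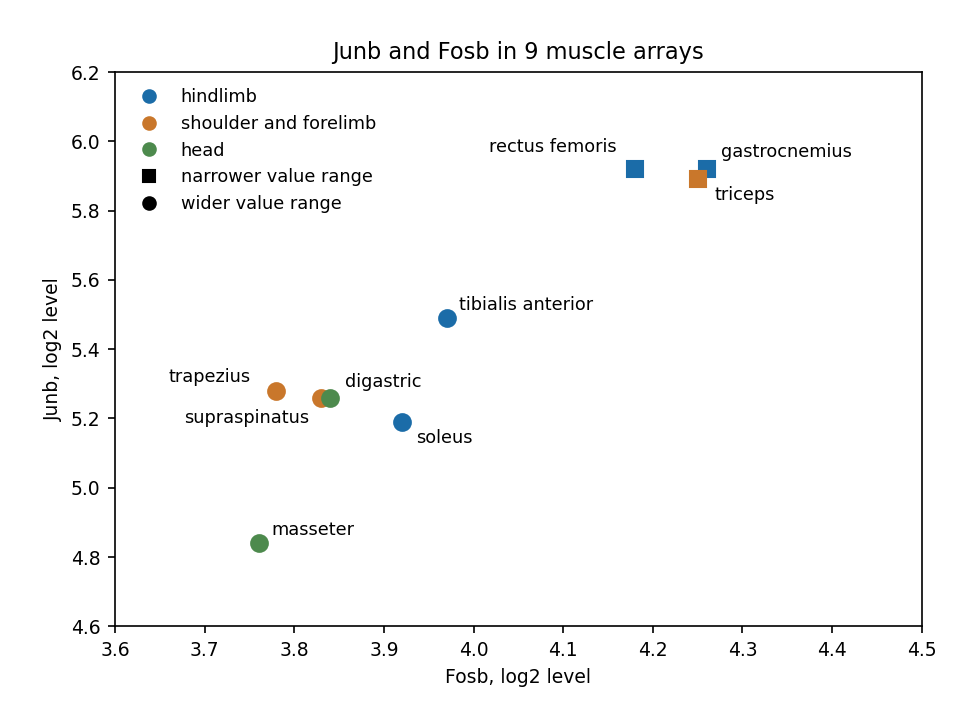
Log2 level of Junb (vertical axis) against that of Fosb (horizontal axis); each point is 1 of the 9 arrays, coloured by region, with squares for the 3 arrays of narrower value range. The squares, from 2 regions, sit together at the upper right, with Junb between 5.89 and 5.92, and masseter is lowest for both genes.

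Since the arrays fall into separate clusters for this pair, no correlation over all 9 is given. Among the 6 arrays of wider range Junb and Fosb had a Pearson r of 0.68 and a Spearman rho of 0.49, and r was 0.66 without the pair of arrays farthest from the median of Fosb. These values describe 6 arrays that all went through GCRMA and carry no test. Fos was instead highest in masseter and Jun in tibialis anterior.

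Egr2, a zinc-finger factor known for Schwann cell myelination and also induced in muscle, had log2 levels of 3.93 in rectus femoris, 3.83 in tibialis anterior, 3.98 in soleus and 4.15 in gastrocnemius, against 3.47 in trapezius, 4.05 in supraspinatus and 4.04 in triceps, and 3.27 in masseter and 3.18 in digastric. Both head muscles lay below the other 7 muscles. Of all genes, 11.4% had hindlimb levels entirely above head levels, and 15.2% had shoulder and forelimb levels entirely above them. The share of genes with both was not computed. The only step above the within-region SD of 0.22 was 0.36, between tibialis anterior and trapezius, so trapezius lay nearer to the head muscles. The mean was 3.97 ± 0.13 in hindlimb, 3.85 ± 0.33 in shoulder and forelimb and 3.23 ± 0.06 in head muscles. The hindlimb minus head difference was 0.75 log2, or 1.68-fold (SE 0.2, 95% interval 0.31 to 1.18, unadjusted p = 0.00319, limma adjusted p = 0.36). Shoulder and forelimb minus head was 0.63 log2, or 1.54-fold (SE 0.21, 95% interval 0.17 to 1.08, unadjusted p = 0.0123, limma adjusted p = 0.712). Both differences shared the 2 head arrays. In the 6 wider arrays alone they were 0.68 and 0.53.

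Egr3, which is needed in mice for muscle spindles, the stretch sensors of muscle, had log2 levels of 3.9 in rectus femoris, 4.11 in tibialis anterior, 3.93 in soleus and 3.82 in gastrocnemius, against 3.43 in trapezius, 3.6 in supraspinatus and 3.23 in triceps, and 3.29 in masseter and 3.59 in digastric. The 4 hindlimb muscles were the 4 highest, with a gap of 0.22 down to supraspinatus, above the within-region SD of 0.16. This was the largest of 3 steps above that SD. The others lay between tibialis anterior and soleus, within hindlimb, and between digastric and trapezius. The mean was 3.94 ± 0.13 in hindlimb, 3.42 ± 0.18 in shoulder and forelimb and 3.44 ± 0.22 in head muscles. Hindlimb minus shoulder and forelimb was 0.52 log2, or 1.44-fold (SE 0.15, 95% interval 0.18 to 0.86, unadjusted p = 0.00623, limma adjusted p = 1.0). Hindlimb minus head was 0.5 log2, or 1.41-fold (SE 0.17, 95% interval 0.12 to 0.88, unadjusted p = 0.0154, limma adjusted p = 0.381). The first difference was 0.51 among arrays of wider range and 0.63 among those of narrower range, and the second was 0.58 among arrays of wider range. A hindlimb group entirely above the other 5 arrays was seen for 258 genes, or 1.16% of all, and for 1 of the 10 members.

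Egr1, the best-known Egr factor and a target of serum response factor, had log2 levels of 4.77 in rectus femoris, 4.34 in tibialis anterior, 4.65 in soleus and 5.2 in gastrocnemius, against 4.21 in trapezius, 4.39 in supraspinatus and 4.45 in triceps, and 5.14 in masseter and 4.41 in digastric. Gastrocnemius and masseter, from different regions, were the highest, and a gap of 0.37, above the within-region SD of 0.34, set them off from the other 7 muscles. The mean was 4.74 ± 0.36 in hindlimb, 4.35 ± 0.13 in shoulder and forelimb and 4.78 ± 0.52 in head muscles. Shoulder and forelimb minus head was -0.43 log2 (SE 0.27, limma adjusted p = 0.759), and it was -0.06 without masseter. Hindlimb minus shoulder and forelimb was 0.39 log2 (SE 0.23, 95% interval -0.12 to 0.9, limma adjusted p = 1.0). Egr1 therefore did not share the order of Egr2 or Egr3.

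Atf3, a stress-induced factor that can repress its own family's targets, had log2 levels of 5.58 in rectus femoris, 5.23 in tibialis anterior, 6.2 in soleus and 5.77 in gastrocnemius, against 6.0 in trapezius, 5.58 in supraspinatus and 5.27 in triceps, and 4.49 in masseter and 5.62 in digastric. Masseter lay 0.74 below the next muscle, more than the within-region SD of 0.48, and the other 8 muscles formed an unbroken run. The mean was 5.69 ± 0.4 in hindlimb, 5.61 ± 0.36 in shoulder and forelimb and 5.05 ± 0.8 in head muscles. Hindlimb minus head was 0.64 log2 (SE 0.35, 95% interval -0.13 to 1.4, limma adjusted p = 0.472), but 0.07 without masseter and 1.21 without digastric. The head value thus rested on which of the 2 muscles was used.

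Btg2, an antiproliferative gene induced by p53 and growth factors, had log2 levels of 5.91 in rectus femoris, 5.87 in tibialis anterior, 6.43 in soleus and 5.57 in gastrocnemius, against 5.3 in trapezius, 5.97 in supraspinatus and 5.29 in triceps, and 6.15 in masseter and 5.78 in digastric. No neighbouring muscles in its order differed by more than the within-region SD of 0.35, although soleus, the highest, and triceps, the lowest, were 1.13 apart. Hindlimb minus shoulder and forelimb was 0.42 log2 (SE 0.24, 95% interval -0.1 to 0.95, limma adjusted p = 1.0), and shoulder and forelimb minus head was -0.45 (SE 0.28, limma adjusted p = 0.756).

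Ier2, a nuclear protein gene induced by growth factors, had log2 levels of 3.62 in rectus femoris, 3.89 in tibialis anterior, 3.91 in soleus and 3.86 in gastrocnemius, against 3.69 in trapezius, 3.42 in supraspinatus and 3.92 in triceps, and 3.64 in masseter and 3.94 in digastric. All 3 regions overlapped. The hindlimb minus head difference was 0.03 log2 (limma adjusted p = 0.965). Ier2, Egr2 and Egr3 had mean levels below the median gene mean of 3.88, so the 2 Egr genes that differed most with region were among the dimmer measurements, and low levels cannot be told from background here.

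For hindlimb against head muscles, 0 of the 10 genes passed in limma, where 0.00902% of all genes (2 genes) did. At an unadjusted p under 0.05 there were 2 of the 10, Egr2 and Egr3, both higher in hindlimb, against 11.9% of all genes, of which 5.45% higher and 6.49% lower. Hindlimb levels were entirely above head levels for 3 of the 10, Fosb, Egr2 and Egr3, against 11.4% of all genes, and entirely below for 0 of the 10, against 9.78%. Of the 10 differences 7 were positive with a median of 0.21, where the median of all genes was 0.04 and 55.0% were positive.

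For hindlimb against shoulder and forelimb muscles, 0 of the 10 passed in limma, against 0.00451% of all genes (1 gene), and 1 of the 10, Egr3, had an unadjusted p under 0.05, against 3.65% of all genes, 1.84% higher and 1.81% lower. Without overlap and higher in hindlimb was likewise Egr3, 1 of the 10, against 2.32% of all genes, and 0 of the 10 were without overlap and lower, against 2.3%. The differences of 9 of the 10 were positive with a median of 0.15, where all genes had a median of -0.01 and 48.2% were positive. For shoulder and forelimb against head muscles, 0 of the 10 passed in limma, as did 0% of all genes, and 1 of the 10, Egr2, had an unadjusted p under 0.05, against 6.92% of all genes, 3.17% higher and 3.75% lower. Egr2 was also the 1 gene of the 10 with no overlap and a higher shoulder and forelimb level, against 15.2% of all genes, and 0 of the 10 had no overlap and a lower level, against 14.7%. Here 4 of the 10 differences were positive with a median of -0.02, where all genes had a median of 0.04 and 55.5% were positive. The test of any difference among regions passed for 0 of the 10, against 0.00451% of all genes, and 2 of the 10 had an unadjusted p under 0.05, against 7.25%.

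**Figure D3:**
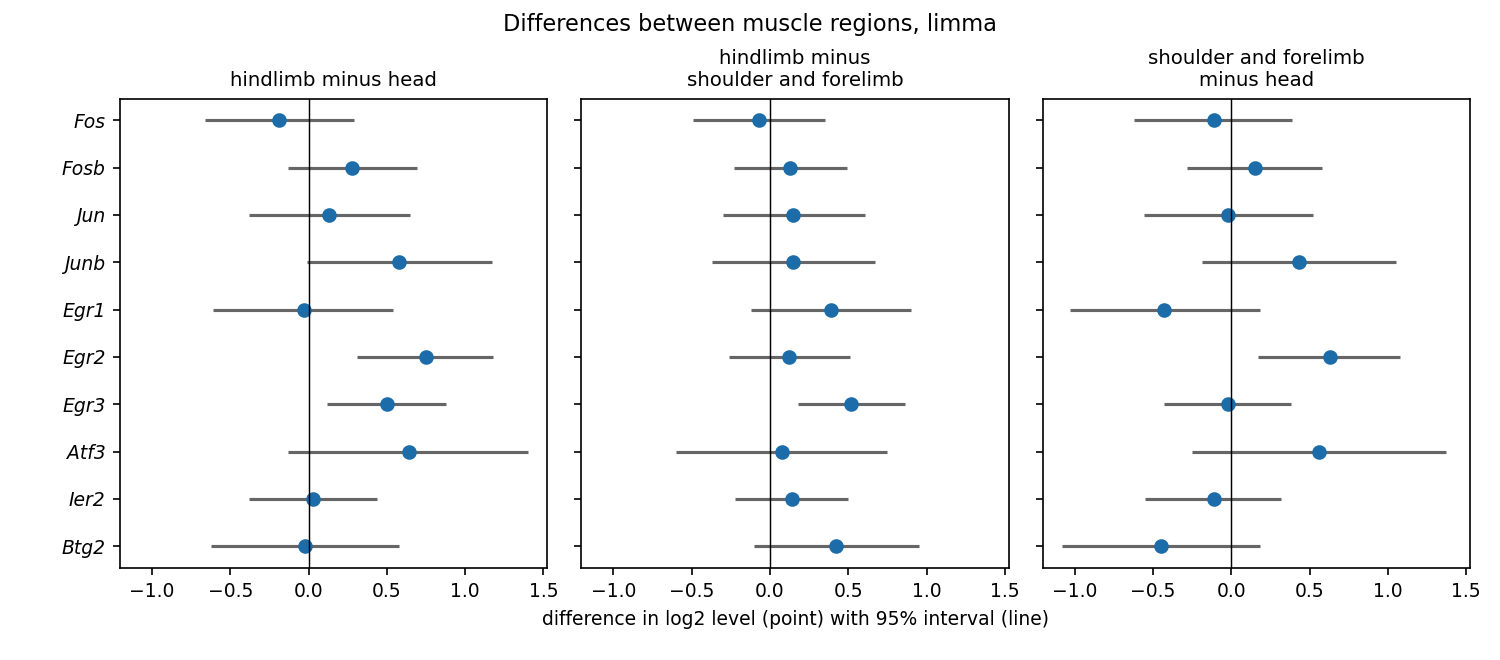
Difference in log2 level between regions (horizontal axis) for each gene (vertical axis) in the 3 contrasts; points are limma estimates and lines their 95% intervals, unadjusted for the number of genes. The intervals of Egr2 and Egr3 lie above 0 for hindlimb minus head, that of Egr3 for hindlimb minus shoulder and forelimb and that of Egr2 for shoulder and forelimb minus head, and all others cross 0.

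How much of each gene's variation ran with region was described by the share of its variance over the 9 arrays that lay between the 3 regions. The share was 78.4% for Egr3 and 73.5% for Egr2, higher than in 98.3% and 97.0% of the genes whose mean level lay within 0.5 log2 of their own. It was 38.4% for Junb, 33.2% for Btg2, 32.7% for Fosb, 32.1% for Egr1 and 29.4% for Atf3. The lowest shares were 13.7% for Ier2, 10.8% for Fos and 8.7% for Jun. The median of the 10 genes was 32.4%, and that of all genes 25.6% with quartiles of 12.5% and 42.0%. For 8 of the 10 genes most of the variance therefore lay between muscles of the same region. With an upper quartile of 42.0%, this was also so for most of all genes and does not set the list apart. The amount of variation differed too, as the SD over the arrays was above that of 87.6% of genes of like mean level for Atf3, 39.0% for Fos and 16.2% for Ier2.

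**Figure D4:**
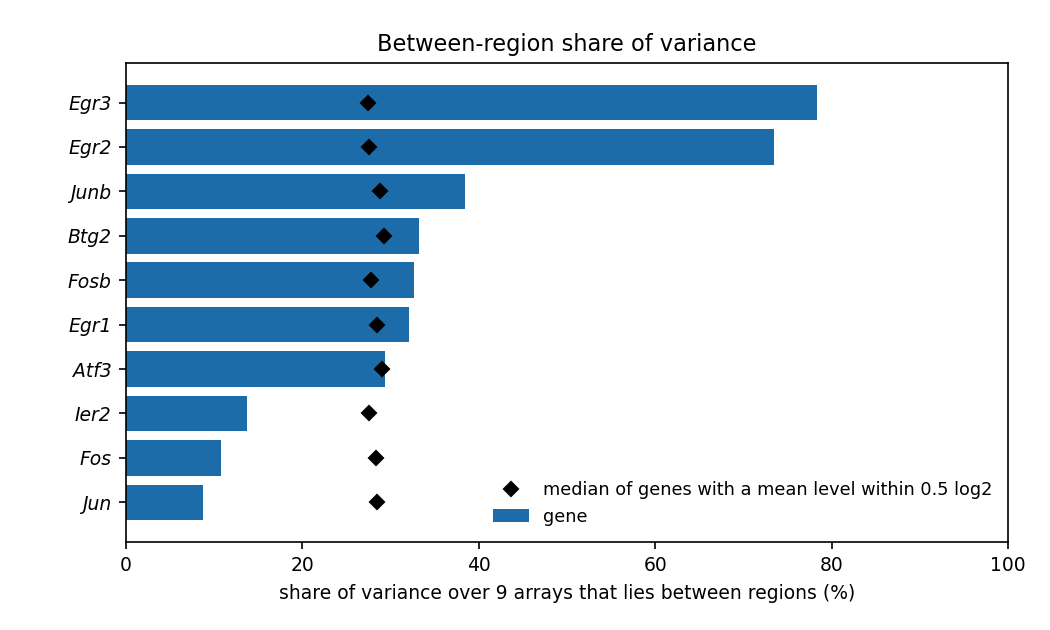
Share of each gene's variance over the 9 arrays that lies between regions, in percent (bars), with the median of genes whose mean level was within 0.5 log2 (diamonds). Egr3 at 78.4% and Egr2 at 73.5% lie far to the right of their diamonds, while Jun at 8.7% and Fos at 10.8% lie to the left.

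The 10 genes did not move as 1 block. Among the 6 arrays of wider range, 28 of 45 pairs of genes had a positive Pearson r and 17 a negative one, with a median of 0.3. The pair values ran from -0.89 for Junb with Egr1 to 0.99 for Fosb with Egr3, and with 6 arrays such values carry little weight. Over all 9 arrays 27 pairs were positive and 18 negative, with a median of 0.11. Gastrocnemius held the highest level of 3 genes, tibialis anterior and soleus of 2 each, and rectus femoris, masseter and digastric of 1 each. Masseter held the lowest level of 3 genes.

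Averaged over the list, the arrays differed by less than for any of the 10 genes alone. The mean deviation of the 10 genes from their own means was 0.05 in rectus femoris, 0.1 in tibialis anterior, 0.16 in soleus and 0.19 in gastrocnemius. It was -0.15 in trapezius, -0.05 in supraspinatus, -0.03 in triceps, -0.16 in masseter and -0.12 in digastric. All 4 hindlimb arrays lay above the other 5, and the average of the 10 levels was 4.99 to 5.13 in hindlimb, 4.79 to 4.91 in shoulder and forelimb and 4.78 to 4.82 in head muscles. In hindlimb muscles 7, 7, 7 and 8 of the 10 genes were above their own mean over the arrays, and in the other muscles 2 to 4 were. The share of all genes above their own mean in each array was not computed. The median over all genes was itself 3.86 to 3.95 in hindlimb, 3.84 to 3.9 in shoulder and forelimb and 3.79 and 3.84 in head muscles. Part of the split may thus be shared by genes at large, and that part was not tested. Taken singly, only 1 of the 10 genes, Egr3, had all 4 hindlimb levels above the other 5 arrays. The median difference of the 10 genes was 0.21 for hindlimb minus head and 0.15 for hindlimb minus shoulder and forelimb. How often the average of other sets of 10 genes splits the arrays in this way was not tested.

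The genes most like the average of the 10, by Pearson r over the 9 arrays among 10430 named genes with a mean level above that of the median gene, were Tenm3 (0.947), Stoml1 (0.935), Trerf1 (0.924), Adamts1 (0.916) and Snx32 (0.91). Hoxc10, a homeobox gene of posterior body position, followed at 0.9. Among the 6 arrays of wider range r was 0.98 for Tenm3, 0.93 for Stoml1, 0.98 for Trerf1, 0.89 for Adamts1 and 0.92 for Hoxc10. These were the highest of many values over few arrays and are given as a description.

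Of 69 other genes of the pathway on 4 lists, 66 were measured, and 1 passed in limma for hindlimb minus head and 0 in either other contrast. The one was Nr4a1, an orphan nuclear receptor and immediate early gene that regulates glucose use in muscle. Its log2 levels were 8.75 in rectus femoris, 9.09 in tibialis anterior, 8.84 in soleus and 8.89 in gastrocnemius, against 8.18 in trapezius, 8.6 in supraspinatus and 8.37 in triceps, and 7.47 in masseter and 7.26 in digastric. Its hindlimb levels were above all others and its head levels below all others, and it rose by 1.52 log2 in hindlimb against head muscles (SE 0.18, limma adjusted p = 0.0484). The difference was 1.42 to 1.69 under 18 alternatives, and the call held under 4 of them, with an adjusted p from 0.0209 to 0.429. Without masseter it was 1.63 and without digastric 1.42, both past no threshold. Nr4a2, its relative, had a difference of 1.18 (SE 0.34, limma adjusted p = 0.364). Of the 29 other immediate early genes 23 had a positive estimate for hindlimb minus head, with a median of 0.25, where 55.0% of all genes were positive. For hindlimb minus shoulder and forelimb 18 of the 29 were positive with a median of 0.06, and 48.2% of all genes were. Their mean level was 5.65 to 5.84 in hindlimb, 5.67 to 5.75 in shoulder and forelimb and 5.34 to 5.57 in head muscles, so that the hindlimb and the shoulder and forelimb ranges overlapped, unlike those of the 10 genes. The difference between the lists was not tested.

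The other AP-1 and Egr family list had 10 measured genes, none of which passed in limma, with 8 positive and a median of 0.21 for hindlimb minus head. Its leading gene was Nab1, a corepressor of Egr factors, at -0.54 log2 (SE 0.15, limma adjusted p = 0.36). The related corepressor Nab2, itself an Egr target, had 0.49 (SE 0.17, limma adjusted p = 0.386). Nab1 had levels of 4.28 to 4.45 in hindlimb, 4.42 to 4.65 in shoulder and forelimb and 4.83 and 4.98 in head muscles, while Nab2 had 6.53 to 6.94 in hindlimb, 6.36 to 6.6 in shoulder and forelimb and 6.1 and 6.33 in head muscles. Fosl2, a Fos family subunit, had 0.37 (limma adjusted p = 0.417). The 13 feedback inhibitors had 9 positive and none past the threshold, with Dusp1, a phosphatase that inactivates MAP kinases, at 0.51 (SE 0.2, limma adjusted p = 0.398). The 14 upstream factors had 5 positive, a median of -0.18 and none past the threshold.

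Lists that bear on handling and activity gave no gene past the threshold in limma in any contrast between regions. They held 12 heat shock and stress chaperones, 13 contraction and load response genes, 10 denervation genes, 13 glucocorticoid response genes, 13 clock genes and 8 slow fibre genes. For hindlimb minus head the medians were 0.03, -0.46, 0.22, -0.15, 0.13 and 2.31 in that order, against 0.04 for all genes. The mean level of the heat shock list was 6.43 to 6.95 in hindlimb, 6.44 to 6.85 in shoulder and forelimb and 6.59 to 6.76 in head muscles, and its regions overlapped throughout. Its genes went both ways, as 5 of the 12 had an unadjusted p under 0.05 for hindlimb minus head, against 11.9% of all genes. Hspd1, a mitochondrial chaperone, was at -1.13 (SE 0.31, limma adjusted p = 0.36) and Hsph1, a cytosolic co-chaperone, at -0.71 (SE 0.21, limma adjusted p = 0.376), while Hspb8 was at 0.56 and Dnajb1 at 0.46. The contraction list averaged 7.01 to 8.17 in hindlimb, 7.15 to 7.95 in shoulder and forelimb and 7.48 to 7.83 in head muscles. It was 7.01 to 7.25 in the 3 arrays of narrower range, against 7.48 to 8.17 in the others. A limma term for value range, with region in the model, called 3 of the 13 contraction genes, all lower in the narrower arrays. It also called 3 clock genes, 1 heat shock gene and 1 glucocorticoid response gene as lower there, and none of the denervation or slow fibre genes. Over all genes 6.33% were called lower and 2.61% higher. Whether the contraction list's level in the narrower arrays has to do with activity was not tested. The slow fibre list averaged 4.88 to 10.46 in hindlimb, highest in soleus, 5.17 to 7.24 in shoulder and forelimb and 4.37 to 4.67 in head muscles. The part of handling, time of day or activity in the levels of the 10 genes was not tested.

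**Figure D5:**
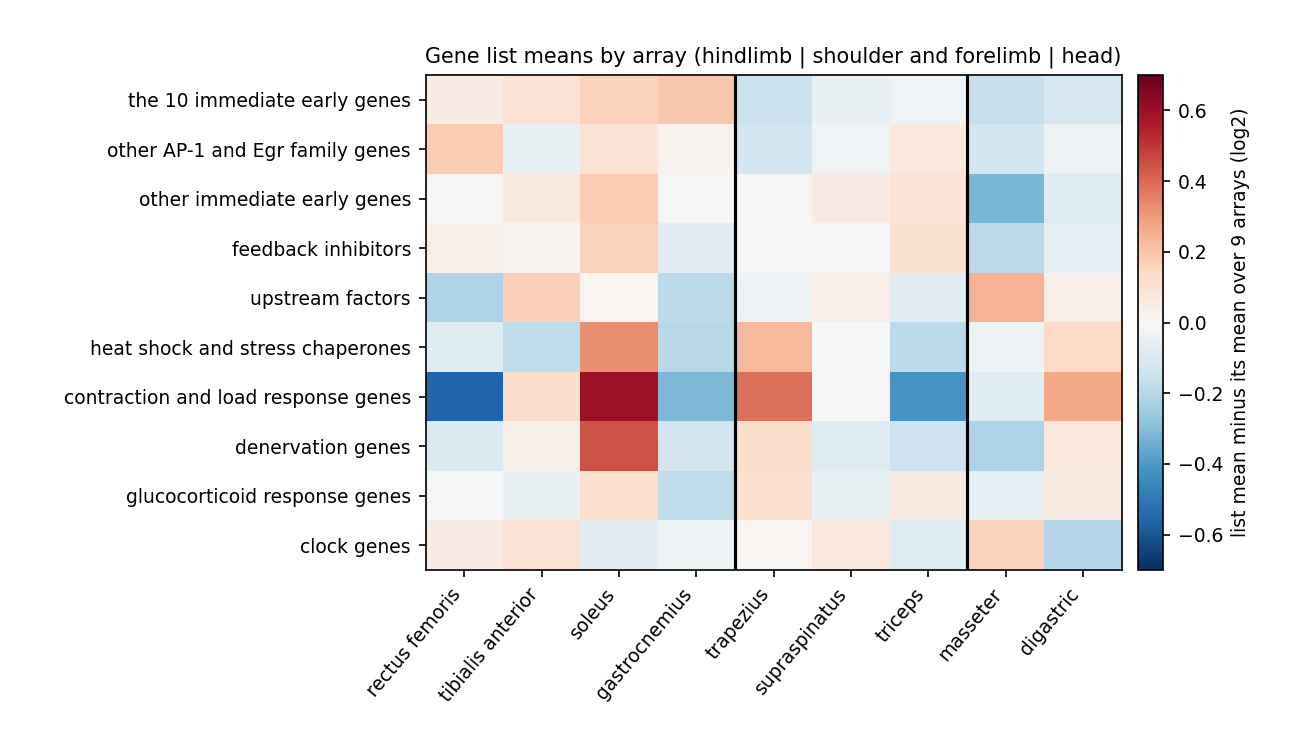
Mean level of each gene list in each array minus the list's mean over the 9 arrays (colour, in log2 units), with hindlimb, shoulder and forelimb, and head muscles separated by lines. The 10 immediate early genes are above their mean in the 4 hindlimb arrays and below it in the other 5, a split that none of the other 9 lists shows.

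Lists of markers of other cell types were summarised by their mean level per array. Endothelial markers averaged 5.88 to 6.96 in hindlimb, 6.11 to 6.36 in shoulder and forelimb and 6.74 to 6.96 in head muscles, and 5.88 to 6.11 in the arrays of narrower range, against 6.21 to 6.96 in the wider ones. Fibroblast markers averaged 7.72 to 8.18 in hindlimb, 7.8 to 8.23 in shoulder and forelimb and 7.43 to 7.86 in head muscles, and 7.96 to 8.23 in the narrower arrays, against 7.43 to 7.95 in the wider ones. Beside Egr2, the 5 measured Schwann cell and nerve markers of 8 listed averaged 4.12 to 4.33 in hindlimb, 4.28 to 4.44 in shoulder and forelimb and 3.87 to 4.21 in head muscles, with Sox10 between 3.5 and 4.03 over all arrays. Myeloid markers averaged 4.44 to 5.12 in hindlimb, 4.64 to 5.38 in shoulder and forelimb and 4.26 to 4.98 in head muscles. Satellite cell markers averaged 4.98 to 5.44 in hindlimb, 5.03 to 5.16 in shoulder and forelimb and 4.79 to 5.11 in head muscles. Smooth muscle and pericyte markers averaged 6.04 to 6.64 in hindlimb, 6.05 to 6.32 in shoulder and forelimb and 6.19 to 6.33 in head muscles. White adipocyte markers averaged 4.74 to 5.38 in hindlimb, 4.93 to 7.19 in shoulder and forelimb, highest in trapezius, and 4.67 to 4.69 in head muscles. Skeletal muscle fibre markers averaged 11.44 to 12.01 in hindlimb, 11.79 to 11.98 in shoulder and forelimb and 11.91 to 11.95 in head muscles. The part of these cells in the levels of the 10 genes was not tested.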

How the data were processed

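Total RNA of 9 mouse muscles was measured on GeneChip Mouse Gene 2.0 ST chips, with a single array for each muscle, per the labels' protocols. The values are log2 levels per probe set that the authors deposited after GCRMA, per the submitters' processing notes, and ran from 0.12 to 13.49 with array medians of 3.34 to 3.44. GCRMA corrects background and has a step meant to make arrays alike in distribution, and it leaves low values close to background. The deposited arrays were not fully alike, as the SD over probe sets was 1.92 to 1.96 in 3 arrays and 2.03 to 2.08 in the other 6. Pooling of animals is not stated.

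Of 41345 probe sets, 23521 had 1 gene in the array's annotation, 1814 had several and 16010 none. Symbols were updated through Entrez identifiers for 23328. The probe set with the highest mean was kept for each of 1082 genes with more than 1, which left 22180 genes. Of 223 list entries 10 were not measured.

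Region means were fitted to all 9 arrays together in limma 3.58.1 (R 4.3.3, lmFit and eBayes), with 3 two-sided contrasts and a test of any difference. P-values were adjusted by Benjamini-Hochberg over all genes at a threshold of 0.05. Residual degrees of freedom were 6, or 10.4 after moderation. The procedure was tested on simulated data, and the number of arrays limits its precision. Region was taken from anatomy. The members and lists were chosen with earlier results of these data known. Genes named beyond the members were the leading ones of each list by moderated statistic and the 10 most like the member mean. Alternatives were another centring or normalization, a filter on dim genes, averaged probe sets, other limma settings, the value range of the arrays, fewer groups, and each array left out. No array column was left unused.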

Additional observations from a re-analysis of the deposited data

How the results depend on the processing

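Under 18 alternatives none of the 10 genes passed the threshold in any contrast, and of 531 values 494 kept their sign. The other 37 changed sign, and none was past the threshold before or after. The difference most changed in this way was that of Atf3 for shoulder and forelimb minus head, 0.56 with all arrays and -0.01 without masseter. Without an array in turn, hindlimb minus head ran from -0.39 to 0.02 for Fos, -0.04 to 0.27 for Jun, -0.4 to 0.33 for Egr1, -0.12 to 0.18 for Ier2 and -0.21 to 0.16 for Btg2. Hindlimb minus shoulder and forelimb ran from -0.18 to 0.07 for Fos, -0.02 to 0.28 for Jun, -0.07 to 0.22 for Egr2 and -0.09 to 0.27 for Atf3. Shoulder and forelimb minus head ran from -0.32 to 0.09 for Fos, -0.16 to 0.12 for Jun, -0.17 to 0.13 for Egr3, -0.01 to 1.13 for Atf3 and -0.27 to 0.04 for Ier2. Hindlimb minus head also changed sign for Egr1 under quantile normalization (0.05), for Ier2 under median centring (-0.01), and for Btg2 under quantile normalization (0.14), with the value range as covariate (0.2) or term (0.17) and among the 6 arrays of wider range (0.18). Among those 6 arrays hindlimb minus shoulder and forelimb was 0.09 for Fos and -0.08 for Atf3. Shoulder and forelimb minus head was 0.1 for Jun under quantile normalization and 0.08 with the range as covariate or term, and for Egr3 0.04 as covariate, 0.05 as term and 0.07 among the 6 arrays. The mean difference of the members for hindlimb minus head, 0.27, was 0.33 under quantile normalization and 0.2 once dim genes were dropped, among them Egr2, Egr3 and Ier2. The median share of variance between regions, 32.4%, was 44.8% among the 6 arrays, and 23.7% to 41.7% without an array in turn. Over all genes, the count past the threshold for hindlimb minus head, 2, was 1 under median centring, with trend and robust settings, among the 6 arrays, with the range term and with the compared groups alone. It was 0 to 19 without an array in turn, 19 without soleus and 0 without masseter. For shoulder and forelimb minus head it was 0 to 4, and for any difference 1 to 5, both highest without digastric. The Junb difference with value range, 0.6, was 0.52 to 0.68 without an array in turn. It lost its call without any 1 array outside the head group. The causes were not tested. The head group had 2 arrays, and 3 members had mean levels below that of the median gene. The differences of Egr2 from head muscles, and those of Egr3 between hindlimb and either other region, were larger than the within-region SD. They did not pass after adjustment over all genes. Egr2 for hindlimb minus shoulder and forelimb (0.12) and Egr3 for shoulder and forelimb minus head (-0.02) were within that SD. No value of the 10 genes stood apart from the rest of the hindlimb group by Dixon's test, and the other regions had too few arrays for it. No paired analysis was possible because the labels do not say which muscles came from the same animal.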
